A study of Sus scrofa with 220 samples.

Results

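The inner cell mass (ICM) is the small group of cells inside the early blastocyst from which the epiblast and the hypoblast arise, while the outer layer, the trophectoderm, forms placental tissue. The epiblast (EPI) is the pluripotent tissue that will build the fetus, and in the pig it stays an unattached disc or ball of cells for several days before gastrulation. Pluripotency in the ICM is called naive and that of the later epiblast primed, 2 states that in other mammals differ in their transcription factors, in the cytokines they answer to, in DNA methylation and in energy metabolism. The cells compared here were the 24 labelled EB ICM, from early blastocysts, and the 48 labelled Sph EPI, from spherical embryos, 72 of the 220 cells of the series.

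All cells came from embryos flushed from crossbred Large White and Landrace sows after artificial insemination, with no treatment or genetic change in either group. The spherical embryos were several days older than the early blastocysts. The study read sex from Y chromosome genes and found male and female cells in both groups. Sex did not enter the fits. Early blastocysts lost their zona in acidic medium and were dissociated whole, and the epiblast of spherical embryos was separated by hand, so that stage and handling cannot be told apart. Each cell was collected manually and sequenced with Smart-seq2, which reads along whole polyadenylated transcripts. The labels name the cell type, and the study drew its lineages from a clustering of these same transcriptomes, so that lineage markers took part in choosing the cells. Counts were summed over the cells of an embryo, giving 7 ICM sums (embryos AA, AC, AD, AE, AF, AG and AI, with 1 to 7 cells each) and 4 Sph EPI sums (C, D, E and F, with 4 to 19 cells each). Epiblast cells of the late blastocyst (LB EPI), the stage between, freed of trophectoderm by immunosurgery, are set beside them as 4 sums (AN, AO, AP and AQ, with 2 to 10 cells each). They leave out 1 cell whose name gives no certain embryo.

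ICM cells held 1056123 to 5041162 counts on genes and Sph EPI cells 1144910 to 4906923. Thinned to 1000000 counts each, an ICM cell showed 5719 ± 501 genes (SD over embryos, n = 7) and a Sph EPI cell 5881 ± 778 (n = 4). The difference of 162 genes was within the spread of the embryos (exact permutation test over 330 arrangements, two-sided, p = 0.697). Unthinned, the difference was 198 genes (exact permutation p = 0.661). No 2 cells had identical counts, and both groups had cells in each of the 8 sequencing pools. Of the general pluripotency genes chosen to check the labels, PRDM14 could be matched, and it held 0 CPM in the median ICM embryo and 48.9 CPM in the median Sph EPI embryo without being called (adjusted p = 0.423, edgeR). POU5F1, SOX2, NANOG and SALL4 were not analysed here. Levels are given as CPM, counts scaled to a total of 1000000 after TMM, a correction for differences in RNA composition. The values of a gene in the 7 ICM embryos are given as lowest, median and highest. Those of Sph EPI are in the order C, D, E and F, and those of LB EPI in the order AN, AO, AP and AQ.

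Each of the 5 marker genes separated the groups almost as present and absent. They were given in advance as markers of this comparison, so their separation is not independent evidence. XPNPEP2, a membrane-bound aminopeptidase that removes the first residue of peptides with proline in second place, held 168, 257 and 499 CPM in the ICM and no count in any of the Sph EPI embryos. It was at least 9712-fold higher in the ICM, taking 3 counts over the whole Sph EPI group as the limit (adjusted p = 1.92e-06, edgeR quasi-likelihood test with Benjamini-Hochberg adjustment over 14721 genes, as for every adjusted p here). It passed a TPM of 1 in 24 of 24 ICM cells and in 0 of 48 Sph EPI cells, where a limit of 3 cells would be a share of 6.25%. In a sum over cells, fewer expressing cells and less RNA per cell cannot be told apart, and the shares of cells are given for that reason. GJB5, a connexin that forms gap junction channels, was the second ICM marker, with 140.3, 266 and 340.2 CPM in the ICM. In Sph EPI a single count in embryo D was all that was found for GJB5 (adjusted p = 7.42e-07), and 23 of 24 ICM cells and 1 of 48 Sph EPI cells passed a TPM of 1.

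The other 3 markers lay in the epiblast. GJA1, the connexin Cx43, had no count in any ICM embryo and 115, 351, 231 and 168 CPM in Sph EPI, at least 3721-fold higher (adjusted p = 0.000117). HAS2, which makes the matrix polysaccharide hyaluronan, also had no count in the ICM. Its level varied most among the 3, with 84.1, 241, 565 and 141 CPM in Sph EPI, at least 3431-fold higher than in the ICM (adjusted p = 0.000186). LTA4H, which turns leukotriene A4 into leukotriene B4 and also works as an aminopeptidase, held a single count in the ICM against 391.99, 305, 257 and 434 CPM in Sph EPI, a ratio of 21029.9-fold (95% counting interval 3774 to 830658), with an adjusted p of 2.5e-07. None of the 24 ICM cells passed a TPM of 1 for these 3 genes, where a limit of 3 cells would be a share of 12.5%. The shares of Sph EPI cells that did were 97.9% (88.9 to 99.9%) for GJA1, 89.6% (77.3 to 96.5%) for HAS2 and 97.9% (88.9 to 99.9%) for LTA4H (exact Clopper-Pearson 95% intervals). These intervals and limits cover counting error only and take the cells as independent, although they came from 7 and 4 embryos.

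**Figure D1:**
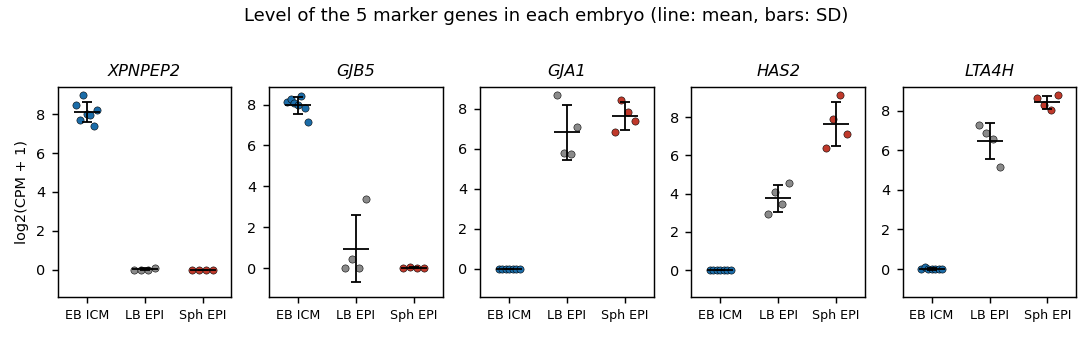
Level of the 5 marker genes, as log2(CPM + 1) on the vertical axis, in each embryo of EB ICM (7 points), LB EPI (4) and Sph EPI (4). Horizontal lines are means and bars are SD. XPNPEP2 and GJB5 lie between 140.3 and 499 CPM in the ICM and at or near 0 in Sph EPI, and GJA1, HAS2 and LTA4H do the opposite.

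In LB EPI the 5 genes had mostly changed sides already. XPNPEP2 was at 0, 0, 0 and 0.0558 CPM there and GJB5 at 0, 0.352, 0 and 9.37 CPM. GJA1 stood at 406, 54.2, 52.8 and 135 CPM, overlapping the Sph EPI embryos, and LTA4H at 151, 115, 92.6 and 34.6 CPM, below all 4 of them. HAS2 was still far below its later level, with 6.78, 16, 9.85 and 22.8 CPM. It differed from the ICM with an adjusted p of 0.036 and from Sph EPI with 0.0441, the only one of the 5 called in both steps. In other groups of the series, XPNPEP2 had a median of 215 CPM in morulae and 176 CPM in early trophectoderm, and GJB5 283 and 172 CPM. Both genes were thus also found in the outer layer of the early blastocyst. LTA4H was seen in the hypoblast (HYPO) too, with medians of 78.7 CPM in LB HYPO and 127 CPM in Sph HYPO, whereas HAS2 had 0 and 0.266 CPM in these 2 groups.

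Across all genes, 990 of 14721 differed between ICM and Sph EPI at an adjusted p below 0.05, which is 6.73% of those tested. Of these 668 were higher in Sph EPI (4.54%) and 322 higher in the ICM (2.19%). Many of them had no count in the lower group: 375 of the 668 had no count in any ICM embryo, 84 had 1 to 3, and 61 of the 322 had no count in any Sph EPI embryo. The ICM group held 24 cells against 48 and fewer counts in all, so a low gene is missed more easily there. The share of all tested genes without an ICM count is not given here, so absence and low level cannot be told apart. With the filter filterByExpr, which kept 9623 genes, 473 were called higher in Sph EPI and 367 higher in the ICM. Among the called genes with more than 3 counts in both groups, the median fold was 3.93 for the 209 higher in Sph EPI and 9.65 for the 229 higher in the ICM. The embryos of the groups did not overlap for 751 of the called genes, and for 10.4% of all genes tested. The median log2 fold change over all genes was 0.30 in favour of Sph EPI, 0.21 with DESeq2 size factors and 0.10 without TMM, so small differences are read against this shift.

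**Figure D2:**
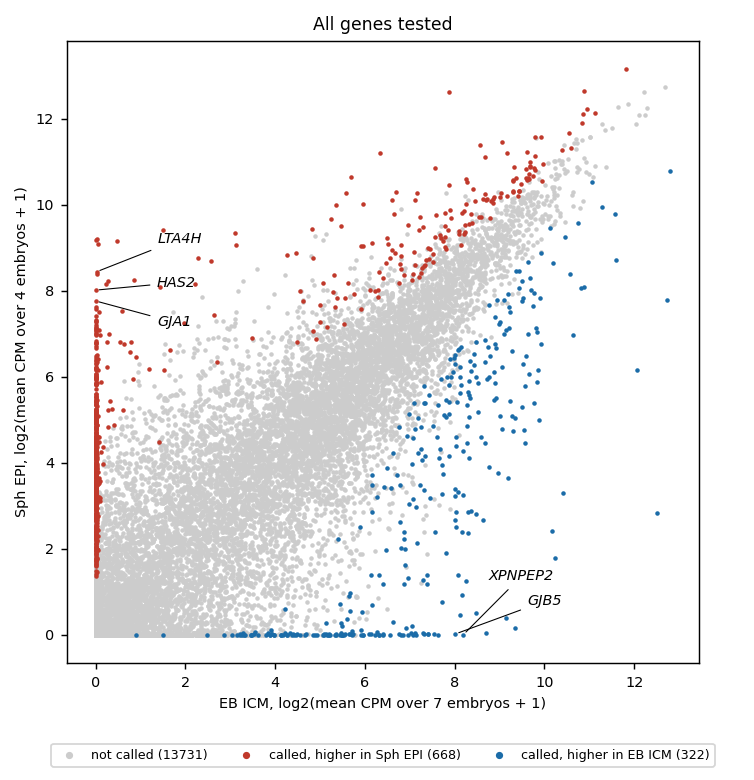
Mean level of all 14721 genes tested, as log2(mean CPM + 1), in EB ICM (horizontal axis, 7 embryos) and Sph EPI (vertical axis, 4 embryos). Red points are the 668 genes called higher in Sph EPI and blue points the 322 called higher in the ICM, and many of them lie along the axes, where the other group is at 0.

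Single embryos mattered for this count. Leaving out Sph EPI embryo C, D or F brought it to 530, 529 and 492 genes. The cells of the first 4 pools alone gave 452 genes, 316 of them higher in Sph EPI, and those of the last 4 pools 374, 211 of them higher in Sph EPI. DESeq2 called 2059, with 1097 higher in Sph EPI.

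The 12 genes with the smallest p in each direction, among those whose embryos did not overlap, led the comparison. On the Sph EPI side UCHL1, KIF5C, NELL2 and DOK5 were close to absent from the ICM. UCHL1, a deubiquitinating enzyme abundant in neurons, held 705.92, 590.4, 362 and 689.7 CPM in Sph EPI and 2 counts in all ICM embryos together (adjusted p = 2.43e-07). KIF5C, a kinesin motor for transport along microtubules, stood at 615, 438, 656 and 459 CPM against 4 counts in the ICM (adjusted p = 9.05e-07). NELL2, a secreted glycoprotein of the nervous system, was at 113, 64.4, 108 and 128 CPM against 1 count (adjusted p = 1.61e-05). For all 3, no ICM cell passed a TPM of 1, while 48 of 48, 47 of 48 and 43 of 48 Sph EPI cells did. The signalling adaptor DOK5, at 54, 53, 48.2 and 164 CPM, followed the same pattern, with 1 ICM count (adjusted p = 7.85e-05).

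SLC1A5 and ACSL4 also went from almost no counts to abundant, while SOD1 and NPM1 were expressed in both groups. The glutamine transporter SLC1A5 had 384, 251, 273 and 422 CPM in Sph EPI and 2 ICM counts (adjusted p = 7.42e-07). ACSL4, which activates polyunsaturated fatty acids, had 226, 112, 197 and 183 CPM and 4 ICM counts (adjusted p = 4.76e-05). SOD1, the cytosolic superoxide dismutase, was present in both groups, with 122, 188 and 280.4 CPM in the ICM and 2616, 1707, 1643 and 1451 CPM in Sph EPI, 9.7-fold more (log2 fold change 3.28 ± 0.26, SE, adjusted p = 3.61e-06). SOD1 was not called by limma voom with sample quality weights (adjusted p = 0.454). NPM1, a nucleolar protein of ribosome assembly, showed the smallest fold of the 12 leaders, 2.48. It held 2712, 3777 and 4537 CPM in the ICM and 10345, 8658, 8088 and 9539.9 CPM in Sph EPI (log2 fold change 1.31 ± 0.13, adjusted p = 2.83e-05).

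On the ICM side, the 12 included GJB5 and XPNPEP2, and beside them ETNPPL, SOAT1, GALC and LIPH, which were far lower or not found in Sph EPI. ETNPPL, a phospho-lyase that breaks down phosphoethanolamine, held 224, 377 and 675 CPM in the ICM and 3 counts in Sph EPI (adjusted p = 2.69e-06), and was expressed in morulae at a median of 1092 CPM. SOAT1, which esterifies cholesterol for storage, stood at 1301, 2001 and 2488 CPM in the ICM and 382, 201, 229 and 279 CPM in Sph EPI, 7.07-fold lower in the epiblast (adjusted p = 1.41e-05). GALC, a lysosomal galactosylceramidase, was 30.9-fold lower, from 559.7, 903 and 1489 CPM in the ICM to 55.2, 28, 11.2 and 29.9 CPM (adjusted p = 1.94e-05). The lipase gene LIPH had 57, 121 and 160.0 CPM in the ICM and no count in Sph EPI or LB EPI, at least 3981-fold higher than in Sph EPI (adjusted p = 2.76e-05).

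BAD, HIGD1A, LRPAP1, GCA and SLC28A3 belonged to the same 12. BAD, which promotes apoptosis by binding BCL2 family proteins, was 75.2-fold higher in the ICM, with 268, 363 and 595 CPM against 2.69, 3.54, 9.51 and 5.76 CPM (log2 fold change -6.23 ± 0.52, adjusted p = 6.3e-06). HIGD1A, a mitochondrial protein known from hypoxia, was 7.47-fold higher with 1695, 3283 and 3993 CPM against 452, 343, 497 and 392.17 CPM, and was also called in the step from LB EPI to Sph EPI (adjusted p = 0.0352). LRPAP1, a chaperone of lipoprotein receptors, fell from 791, 843 and 1435 CPM in the ICM to 107, 100.5, 118 and 107 CPM, with a narrow range in the 4 epiblasts (adjusted p = 4.42e-06). The calcium-binding protein gene GCA was 24.9-fold higher in the ICM (adjusted p = 8.51e-06). The nucleoside transporter SLC28A3 held 48.1, 112 and 315 CPM in the ICM and 3 counts in Sph EPI (adjusted p = 3.1e-05), and was higher still in early trophectoderm, with a median of 2782 CPM.

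**Figure D3:**
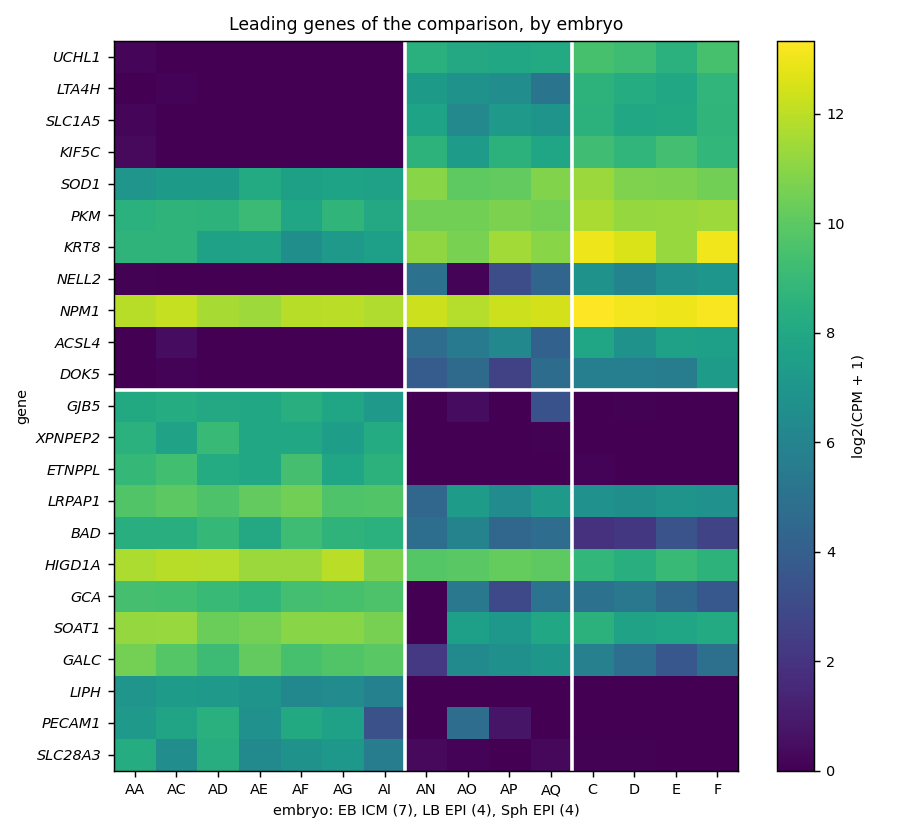
Colour gives log2(CPM + 1) of genes with the smallest p in each direction whose embryos did not overlap (rows; upper block higher in Sph EPI, lower block higher in EB ICM) in each embryo (columns: 7 EB ICM, 4 LB EPI, 4 Sph EPI). Most rows change colour between the ICM and LB EPI columns; HIGD1A and BAD fall again toward Sph EPI.

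The gene lists used to read the comparison by pathway hold some genes that the study itself named from these cells. Their direction is thus not independent evidence. Each count stands against the 4.54% and 2.19% of all genes called in the 2 directions. The WNT, NODAL and BMP, integrin, arachidonate and growth regulator lists had a share higher in Sph EPI near that 4.54%. For members at a higher fitted level, no share over all genes was computed. In every list the count of called members moved by more than 1.5 times in some alternative (ranges are given with the other effects of the processing). Of 10 naive pluripotency genes tested, 3 were higher in the ICM and none in Sph EPI, with a median log2 fold change of -2.92. The other 7 were not called. By fitted level 7 of the 10 were higher in the ICM and 3 in Sph EPI. These 3 were GBX2, PRDM14 and FGF4, with log2 fold changes of 8.52 (adjusted p = 0.0852), 2.63 and 0.12. TBX3, a T-box factor of naive cells, held 16.9, 129 and 267 CPM in the ICM and 1 count in all Sph EPI embryos (adjusted p = 0.0001). KLF4, a Krüppel-like factor used for reprogramming, was 52.1-fold higher in the ICM, with 158, 413 and 1808 CPM against 2.85, 5.7, 32.9 and 4.36 CPM, and embryo E stood above the other Sph EPI embryos (adjusted p = 0.00202). TFAP2C, a factor shared by naive, germ and trophectoderm cells, was 21.9-fold higher, with 300.5, 792 and 1919 CPM against 23.5, 7.45, 38.6 and 94.1 CPM (adjusted p = 0.00139). TFAP2C remained at 776, 233, 504.70 and 379 CPM in LB EPI, inside the ICM range in all but embryo AO, while TBX3 was at 0, 14.1, 0 and 6.47 CPM there. KLF4 and TFAP2C were not called with the cells of the last 4 pools alone.

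The called genes of the primed state were higher in Sph EPI. Of 16 tested members of the primed and epiblast list, 3 were higher in Sph EPI and none in the ICM, and 14 had a higher fitted level in Sph EPI (median log2 fold change 2.93, or 2.46 with genes absent from one group set at their bound). The other 13 were not called, and OTX2 and CDH2 had fitted log2 fold changes of -1.05 and -1.88, toward the ICM (adjusted p = 0.0528 and 0.483). DNMT3B, the de novo DNA methyltransferase of the epiblast, was 26-fold higher, with 8.91, 28.7 and 107 CPM in the ICM and 1373, 968, 1375 and 1205 CPM in Sph EPI (log2 fold change 4.70 ± 0.54, adjusted p = 0.000115). It had reached 1725, 519, 867 and 2519 CPM in LB EPI. NODAL, the TGF-beta family ligand that holds the primed state, had no count in the ICM and 28.4, 41.5, 25.6 and 52 CPM in Sph EPI, at least 749-fold higher (adjusted p = 0.00414). All counts of NODAL, and of UTF1 and EOMES below, are even numbers, so reads may have been counted doubly, and their levels and bounds may then be too high by a factor of 2. SFRP2, a secreted WNT inhibitor, had no count in the ICM and 25.6, 8.9, 28.1 and 44.9 CPM in Sph EPI (adjusted p = 0.00733). Among the 3 core pluripotency genes tested (median 1.96), ZSCAN10 was called, with no ICM count and 12.1, 15.4, 37.5 and 20 CPM in Sph EPI (adjusted p = 0.00919). LIN28A at 0, 5.8 and 15.2 CPM against 22.6, 24.5, 23 and 12.6 CPM and UTF1 at 0, 0 and 4.94 CPM against 1.22, 1.66, 0 and 1.3 CPM were not called (adjusted p = 0.409 and 0.982).

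Interleukin 6 type cytokines signal through receptor subunits that share IL6ST, through JAK kinases and through STAT3. Of 19 tested members of this pathway, 4 were higher in the ICM (IL6R, IL6ST, STAT2 and STAT3) and 1 in Sph EPI (PIM1), with a median log2 fold change of -0.57 (-0.81 with bounds). The receptor IL6R showed the clearest drop, from 560.3, 953 and 2774 CPM in the ICM to 4.75, 0, 0 and 4.91 CPM in Sph EPI, with 24 of 24 ICM cells and 5 of 48 Sph EPI cells above a TPM of 1 (log2 fold change -8.94 ± 1.42, adjusted p = 0.00156). IL6ST, the signalling subunit gp130, held 38.1, 359.9 and 472 CPM in the ICM and 17, 26, 122 and 13.5 CPM in Sph EPI (adjusted p = 0.0365). The groups overlapped for IL6ST: ICM embryo AD was far below the others and Sph EPI embryo E far above. STAT3 also overlapped, with 98.2, 564 and 919 CPM against 37.7, 80.4, 76.6 and 99.9 CPM (log2 fold change -2.87 ± 0.51, adjusted p = 0.00373), and AD was again the lowest ICM embryo. STAT2, of the interferon response, did not overlap and was 19.9-fold higher in the ICM (adjusted p = 0.000143). PIM1, a kinase that STAT factors induce in many cells, was the exception to the direction, with 3.56, 36.1 and 76 CPM in the ICM and 184, 238, 335 and 148 CPM in Sph EPI (adjusted p = 0.0385). STAT2 and STAT3 were not called with all 7 groups in 1 model, IL6ST lost its call without AA, AC, AE, AF, AG, C, D or F (adjusted p up to 0.101) and PIM1 without AA, AE, AG, C, D, E or F (adjusted p up to 0.0973).

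**Figure D4:**
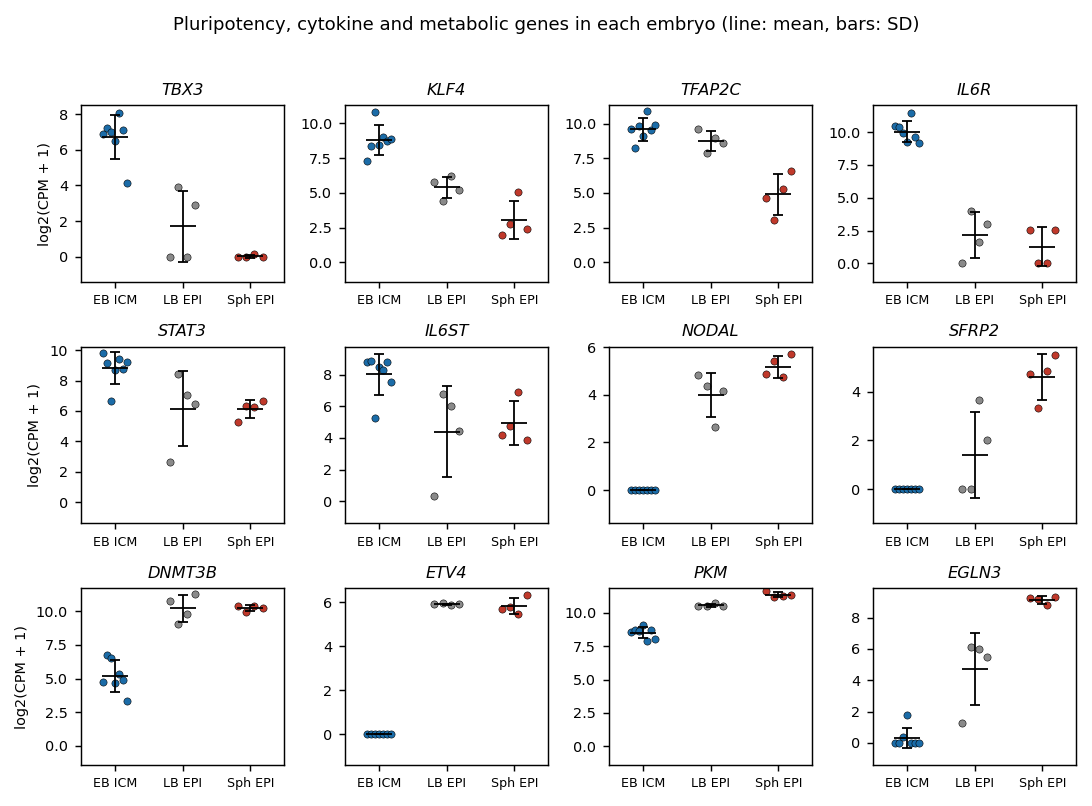
Level of 12 genes of pluripotency, cytokine signalling, growth factor signalling and metabolism, as log2(CPM + 1) on the vertical axis, in each embryo of EB ICM, LB EPI and Sph EPI (points; lines are means and bars SD). TBX3, KLF4, TFAP2C, IL6R, STAT3 and IL6ST are higher in the ICM and the other 6 higher in Sph EPI, with LB EPI at the Sph EPI level for DNMT3B and ETV4 and between the groups for EGLN3.

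In the NODAL, TGF-beta and BMP list, 2 of 31 tested members were called, both higher in Sph EPI, and 25 had a higher fitted level there (median log2 fold change 1.41, or 1.38 with bounds). Beside NODAL this was ID4, an inhibitor of basic helix-loop-helix factors, with 15.8, 0, 0.109 and 7.4 CPM in Sph EPI and 1 count in the ICM (adjusted p = 0.0378). Its counts came from embryos C and F in the main, and it lost its call without AA, AC, AD, AE, AF, AG, AI, C or F (adjusted p up to 0.108). The inhibitory SMAD6 was at 0, 3.69 and 18.1 CPM in the ICM and 1 count in Sph EPI without being called (adjusted p = 0.0609). In the FGF and MAPK list 2 of 24 were higher in Sph EPI: ETV4, a factor that FGF signalling switches on, with no ICM count and 51.2, 53.9, 43.1 and 79.2 CPM (adjusted p = 0.00193), and DUSP4, a phosphatase that dampens MAP kinases, with no ICM count and 25.8, 9.86, 99.4 and 34.5 CPM (adjusted p = 0.00509). ETV4 was at 59.6, 60.9, 58.2 and 60.1 CPM in LB EPI, nearly the same in the 4 embryos. The median of the FGF and MAPK list was 0.15 (0.18 with bounds), and it was close to 0 without TMM. For ETV1, of the same family as ETV4, the ICM held 8.2, 80 and 119 CPM and Sph EPI 287, 332, 249 and 245 CPM, and the adjusted p was 0.0523.

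Of 34 WNT genes tested (median log2 fold change 0.38, or 0.35 with bounds), 2 were called, SFRP2 and the receptor FZD2, which had no ICM count and 9.27, 26.8, 15.3 and 46.3 CPM in Sph EPI (adjusted p = 0.00859). The related inhibitor SFRP1 at 0, 0 and 11.4 CPM against 176, 40.3, 82.7 and 79.6 CPM missed the threshold (adjusted p = 0.056). The HIPPO list of 16 (median 0.21, or -0.01 without TMM) split in its called members: its coactivator WWTR1 (TAZ) and the kinase cofactor MOB1B were higher in the ICM, and CCN1 and CCN2, secreted proteins that are known targets of the pathway, were higher in Sph EPI. WWTR1 held 119, 278 and 365 CPM in the ICM and 8.05, 4.03, 0 and 9.17 CPM in Sph EPI (adjusted p = 0.00373). CCN2 went from 0, 0 and 1.37 CPM to 52.5, 31.8, 381 and 40.5 CPM, with embryo E far above the rest (adjusted p = 0.00175). CCN1 went from 1 count to 16, 4.7, 38.1 and 10.8 CPM (adjusted p = 0.0027). In LB EPI, CCN1 stood at 17.7, 29.9, 105 and 72.9 CPM and CCN2 at 37.6, 48.3, 281 and 75.8 CPM.

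Glycolysis splits glucose to pyruvate in the cytosol, and of 34 tested genes of glycolysis, glycogen and the hypoxia response 6 were higher in Sph EPI and none in the ICM (median log2 fold change 1.34, or 1.31 with bounds). PKM, pyruvate kinase, was 7.02-fold higher with 231, 389 and 539.9 CPM in the ICM and 3217, 2391, 2456 and 2650.0 CPM in Sph EPI (log2 fold change 2.81 ± 0.22, adjusted p = 4.02e-06). GAPDH was 16.8-fold higher with 10.16, 58.8 and 137 CPM against 1749, 853, 458 and 1099.5 CPM (adjusted p = 0.00115). ENO1, enolase, was 3.37-fold higher (adjusted p = 0.00873). ALDOC, an aldolase, held 0, 0 and 12.8 CPM against 213, 96.6, 198 and 99.5 CPM (adjusted p = 0.0365). PYGM, glycogen phosphorylase, had no ICM count and 93.4, 58.4, 24.1 and 66.7 CPM in Sph EPI (adjusted p = 0.00199). EGLN3, a prolyl hydroxylase that marks the hypoxia factor HIF for degradation, was found in 2 of 7 ICM embryos with at most 2.43 CPM and held 608, 582, 439 and 641 CPM in Sph EPI (adjusted p = 0.000206). In LB EPI it had 1.45, 69.6, 63.8 and 43.4 CPM. ENO1 lost its call without C (adjusted p up to 0.054) and ALDOC without AC, AE, AG, AI, C, D, E or F (adjusted p up to 0.0923). With limma voom and sample quality weights PKM and GAPDH were not called (adjusted p = 0.184 and 0.0548).

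The tricarboxylic acid cycle oxidises pyruvate further in the mitochondrion. Its list also holds cytosolic forms and enzymes beside the cycle, such as IDH1, MDH1 and ME2. In this list 4 of 28 tested genes were higher in the ICM (among them DLD, IDH1 and ME2) and 2 higher in Sph EPI (SDHD and MDH1). The median log2 fold change was -0.09 (-0.12 with bounds). DLD, a shared subunit of the pyruvate and oxoglutarate dehydrogenases, was 2.58-fold higher in the ICM, with 1833, 2269 and 3648 CPM against 1101, 1134, 792 and 897 CPM (adjusted p = 0.00156). IDH1, the cytosolic isocitrate dehydrogenase, was 2.33-fold higher, with 1244, 1629 and 2307 CPM against 824, 863, 334 and 1015 CPM (adjusted p = 0.0181). SDHD, an anchor subunit of succinate dehydrogenase, was 1.9-fold higher in Sph EPI (log2 fold change 0.93 ± 0.21, adjusted p = 0.0151), a difference not called without TMM. Leaving out 1 embryo ended the calls of SDHD without C (adjusted p up to 0.0536), of MDH1 without AA, C or F (adjusted p up to 0.127) and of ME2 without AC, C, D or F (adjusted p up to 0.0764). Of 41 nuclear genes of the respiratory chain, 4 were higher in the ICM and none in Sph EPI, and 31 had a higher fitted level in the ICM (median log2 fold change -0.32 against 0.30 over all genes). These were NDUFB9 of complex I (-0.99 ± 0.23, adjusted p = 0.019), UQCRC2 of complex III (-0.99 ± 0.26, adjusted p = 0.0329), COX4I1 of complex IV (-0.69 ± 0.19, adjusted p = 0.0393) and COX17, a copper chaperone for complex IV (-1.48 ± 0.35, adjusted p = 0.0199). The folds were 1.98 for NDUFB9, 1.99 for UQCRC2, 1.61 for COX4I1 and 2.79 for COX17. These calls were lost without F (adjusted p up to 0.0751) for NDUFB9, without AA, AC, AE, AG, C, D or E (adjusted p up to 0.0991) for UQCRC2, without AA, AC, AE, AF, AG, AI, C, D, E or F (adjusted p up to 0.103) for COX4I1 and without AC, C, D or F (adjusted p up to 0.0751) for COX17.

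Cholesterol is made from acetyl-CoA through the mevalonate pathway, and 3 of 22 tested genes of its synthesis and uptake were higher in Sph EPI against 1, SOAT1, in the ICM (median log2 fold change 1.504, or 1.71 with bounds, with 20 members at a higher fitted level in Sph EPI). FDPS, farnesyl diphosphate synthase, was 12.1-fold higher with 22.6, 111 and 188 CPM against 1150.0, 1004, 1665 and 1219 CPM (adjusted p = 0.000274). FDFT1, squalene synthase, was 11.5-fold higher with 14.3, 56.2 and 232 CPM against 1317, 1023, 953 and 1169 CPM (adjusted p = 0.00524). The sterol reductase TM7SF2 had no ICM count and 27.9, 9.19, 0 and 12.1 CPM in Sph EPI, with none in embryo E (adjusted p = 0.0393). Of 30 genes of fatty acid and lipid handling 3 were higher in Sph EPI, ACSL4, ACSL3 (4.52-fold, adjusted p = 0.02) and the citrate carrier SLC25A1 (6.41-fold, adjusted p = 0.0298), and none in the ICM, with a median of -0.01. Calls were lost without AA, AC, AE, AF, AG, AI, C, D or F (adjusted p up to 0.0986) for TM7SF2, without C or F (adjusted p up to 0.0668) for ACSL3 and without AG or E (adjusted p up to 0.208) for SLC25A1.

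Of 24 amino acid transporters tested, 4 were higher in the ICM and 2 in Sph EPI and 18 were not called, while the median log2 fold change of all 24 was 1.55, in favour of Sph EPI. SLC7A9 and SLC3A1, which together form the carrier of cystine and basic amino acids known from kidney and gut, were both higher in the ICM: SLC7A9 held 139, 329 and 2271 CPM against 14 counts in Sph EPI (adjusted p = 9.23e-05), and SLC3A1 53.5, 285 and 640.4 CPM against 11.4, 5.12, 0 and 0 CPM (adjusted p = 0.024). The creatine transporter SLC6A8 was 32.4-fold and the light subunit SLC7A7 7.1-fold higher in the ICM (adjusted p = 0.00544 and 0.018). SLC7A3, a carrier of arginine and lysine, was 4.52-fold higher in Sph EPI (adjusted p = 0.0034), as was SLC1A5. SLC3A1 lost its call without D (adjusted p up to 0.0639) and SLC7A7 without C or D (adjusted p up to 0.0554). Among 19 peptidases that act on proline or at the cell surface, XPNPEP2 was the only one called (median log2 fold change -0.45, or -0.48 with bounds). PRCP at 0, 0 and 21.2 CPM against 182, 359, 193 and 288 CPM had an adjusted p of 0.0561. Of 15 enzymes of arachidonate and leukotriene metabolism LTA4H was the only one called (median -0.23, or -0.36 with bounds), and PLA2G4A, which frees arachidonate, was at 0, 24.3, 0 and 10 CPM in Sph EPI with 1 count in the ICM (adjusted p = 0.0719).

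Of 7 connexin and pannexin genes tested, GJB5 and GJB1 were higher in the ICM and GJA1 in Sph EPI (median log2 fold change -1.95). GJB1 was at 0, 7.99 and 74.8 CPM in the ICM, with no count in Sph EPI (adjusted p = 0.021), and lost its call without C, D or F (adjusted p up to 0.0567). Among 28 cadherins and tight junction genes 5 were higher in Sph EPI and 1, CLDN8, in the ICM (median log2 fold change -0.04). CLDN6, a claudin of early epithelia, was 5.9-fold higher in Sph EPI with 85.9, 245 and 424 CPM against 1732, 1371, 678 and 1843 CPM (adjusted p = 0.000721). F11R, the junctional adhesion molecule JAM-A, was 7.81-fold higher with 39.4, 115 and 379.7 CPM against 1076, 1308, 752 and 1287 CPM (adjusted p = 0.00187). CLDN10 had 2 ICM counts and 166, 56.8, 48.2 and 65.5 CPM in Sph EPI (adjusted p = 0.000155). CLDN8 held 0, 126 and 263 CPM in the ICM and no count in Sph EPI (adjusted p = 0.00285). The adhesion molecules CDH11 and JAM3 were low, at 31.6, 3.12, 3.06 and 13.6 CPM and 6.48, 4.7, 32.7 and 3.56 CPM in Sph EPI with 2 and no ICM counts (adjusted p = 0.00986 and 0.0215).

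Of 27 extracellular matrix genes tested, HAS2, COL1A2, SPARC and COL5A2 were higher in Sph EPI, and FN1 and VCAN in the ICM (median log2 fold change 0.48, or 0.19 with bounds). Fibronectin (FN1) stood at 167, 573 and 2106 CPM in the ICM and 80.2, 89.9, 76.8 and 62.7 CPM in Sph EPI, 9.61-fold lower (adjusted p = 0.00615). The proteoglycan versican (VCAN), which binds hyaluronan, was 3.83-fold lower (adjusted p = 0.0471). The collagen gene COL1A2 had no ICM count and 38.7, 2.5, 22.4 and 3.31 CPM in Sph EPI (adjusted p = 0.0178), seen in 6 of 48 cells, and it lost its call without C (adjusted p up to 0.0596). SPARC and COL5A2 were at 4.2, 1.16, 1.64 and 4.84 CPM and 23.8, 1.95, 0.109 and 5.81 CPM in Sph EPI with no ICM count (adjusted p = 0.0393 and 0.04). Calls were lost without AA, AC, AE, AF, AG, AI, C, D, E or F (adjusted p up to 0.131) for VCAN, without AA, AC, AE, AF, AG, AI, C, D or F (adjusted p up to 0.101) for SPARC and without AA, AC, AD, AE, AF, AG, AI, C, D or F (adjusted p up to 0.105) for COL5A2.

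Of 17 integrins and their partners only ITGB4 was called (no ICM count, 1.7, 21.9, 5.14 and 9.27 CPM, adjusted p = 0.0239), with a list median of 0.58 (0.59 with bounds), and it lost its call without D or F (adjusted p up to 0.0711). In the families known from axon guidance, 6 of 38 tested genes were higher in Sph EPI and none in the ICM (median log2 fold change 0.80, or 0.94 with bounds): the receptors ROBO1 and ROBO2, their ligand SLIT2, UNC5D, EPHB6 and SEMA3C. None of the 6 had a count in the ICM. ROBO1 at 26.7, 0.832, 88.3 and 11.3 CPM, ROBO2 at 22.6, 4.99, 23.8 and 4.36 CPM and SLIT2 at 23.2, 1.331, 21.4 and 6.75 CPM were each higher in embryos C and E than in D and F. These were low genes seen in few cells (18 of 48, 16 of 48 and 9 of 48), and of the 6 only SLIT2 had counts in LB EPI, with 39.7, 8.37, 0 and 82.5 CPM. UNC5D, EPHB6 and SEMA3C were lower still in Sph EPI, with 14.6, 1.04, 15.1 and 3.74 CPM, 1.09, 1.46, 17.3 and 1.84 CPM and 7.47, 0.374, 1.42 and 3.34 CPM (adjusted p = 0.0269, 0.0393 and 0.045). Calls were lost without C (adjusted p up to 0.051) for ROBO2, without C or F (adjusted p up to 0.0592) for SLIT2, without C or F (adjusted p up to 0.0722) for UNC5D, without AA, AC, AE, AF, AG, AI, C, D, E or F (adjusted p up to 0.0825) for EPHB6 and without AA, AC, AD, AE, AF, AG, AI, C, D, E or F (adjusted p up to 0.105) for SEMA3C.

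Of 15 DNA methylation genes, 3 were higher in Sph EPI and none in the ICM (median log2 fold change 1.04): DNMT3B, HELLS and UHRF1. HELLS, a remodeller needed for DNA methylation, was 4.65-fold higher, with 179, 306 and 409.8 CPM against 962, 1867, 997 and 2044 CPM (adjusted p = 0.000192). UHRF1, which guides maintenance methylation, had 1 ICM count and 13.7, 8.98, 40.7 and 2.74 CPM in Sph EPI (adjusted p = 0.00346). Of 22 polycomb genes, EZH2 and AEBP2 of the complex PRC2 were higher in the ICM, and RNF2 of PRC1 and MTF2, an accessory protein of PRC2, in Sph EPI (median log2 fold change 0.20, or -0.02 without TMM). EZH2, the methyltransferase of histone H3 lysine 27, held 106, 139 and 247 CPM in the ICM and 14.1, 24, 24.9 and 4.54 CPM in Sph EPI, 9.65-fold lower (adjusted p = 0.00449). RNF2 was 8.72-fold higher in Sph EPI with 16.5, 32.4 and 50.2 CPM against 305, 312, 258 and 277 CPM (adjusted p = 0.000274). HELLS was not called by limma voom with sample quality weights (adjusted p = 0.315). EZH2 was not called with the first 4 pools alone or the last 4 alone. MTF2 lost its call without AA, C, D or F (adjusted p up to 0.106) and AEBP2 without AA, AC, AE, AF, AG, AI, C, D, E or F (adjusted p up to 0.123).

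Markers of the other cell types of these embryos were not equally low in the 2 groups. Of 16 hypoblast markers tested, 5 were higher in the ICM (among them PECAM1, HNF4A, APOA2 and FN1) and none in Sph EPI (median log2 fold change -4.25, or -5.99 with bounds). As lineage markers they took part in naming the cells. Their summed level was 561 to 3675 CPM in the ICM embryos and 286 to 338 CPM in Sph EPI, against 6687 to 15359 CPM in LB HYPO. HNF4A, a nuclear receptor of endoderm, was at 6.44, 92.3 and 302 CPM in the ICM and 0 in Sph EPI and LB EPI, at least 3731-fold higher than in Sph EPI (adjusted p = 0.000686). PECAM1, an adhesion molecule of endothelium and early embryos, was at 8.91, 200.01 and 357 CPM against 1 count (adjusted p = 3.03e-05). APOA2, an apolipoprotein, was at 0.0891, 144 and 433 CPM against 1 count (adjusted p = 0.00159). The endoderm factor GATA6 and the receptor PDGFRA were at medians of 147 and 167 CPM in the ICM and 0 CPM in Sph EPI, with counts in 1 Sph EPI embryo each, and were not called (adjusted p = 0.0886 and 0.0648), and GATA4 and HNF4A had no count in Sph EPI. FOXA2 and TF had no count in either group. APOE, RBP4 and COL4A2 had fitted log2 fold changes of 4.01, 3.59 and 2.64, toward Sph EPI, and were not called (adjusted p = 0.143, 0.328 and 0.368). The part of hypoblast precursors in the differences above was not tested.

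Trophectoderm markers were mixed: of 13 tested, the keratins KRT8 and KRT18 were higher in Sph EPI, and TFAP2C and ELF3 in the ICM, and the median log2 fold change was -4.35. KRT8 rose 26.3-fold, from 100.3, 195 and 406 CPM in the ICM to 8074, 6135, 2487 and 8426 CPM (adjusted p = 6.3e-06). KRT18 rose 31.2-fold, from 17.6, 33.9 and 102 CPM to 1793, 1765, 251 and 2656 CPM (adjusted p = 0.000197). With limma voom and sample quality weights neither was called (adjusted p = 0.494 and 0.24). They form the keratin filaments of simple epithelia and were lowest in embryo E in both cases. KRT8 was at medians of 29194 CPM in early trophectoderm and 27662 CPM in Sph HYPO. The list summed to 1036 to 2535 CPM in the ICM and 2873 to 11541 CPM in Sph EPI, where DLX3 had no count, against 18503 to 60594 CPM in early trophectoderm. KRT8 and KRT18 made up most of the Sph EPI sum. By fitted level 10 of the 13 members were higher in the ICM and 3 in Sph EPI. ELF3 lost its call without AA, AC, AD, AE, AF, C, D, E or F (adjusted p up to 0.128). The part of trophectoderm RNA in the keratin difference was not tested. Genes with many processed copies in mammalian genomes, such as the keratins, GAPDH, NPM1 and PKM, may share reads with those copies, and the protocol keeps no strand, so overlapping genes cannot be told apart.

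Markers of gastrulation were low in both groups, with sums of 22.1 to 123 CPM in the ICM and 10.6 to 81.9 CPM in Sph EPI. Of 10 tested, GSC and CHRD, an organiser factor and a BMP antagonist, were higher in the ICM (3.76, 12.5 and 35.4 CPM against 9 counts, adjusted p = 0.0272, and 0, 50.5 and 102 CPM against 0.385, 1.08, 0 and 0.424 CPM, adjusted p = 0.0414), and EOMES, a T-box factor of endoderm and mesoderm, in Sph EPI (8.85, 6.57, 0 and 10.17 CPM against no count, adjusted p = 0.0495). The median of the list was 0.84 (1.68 with bounds). Calls were lost without D or F (adjusted p up to 0.0972) for GSC, without AC, AE, AF, AG, AI, C, D, E or F (adjusted p up to 0.114) for CHRD and without AA, AC, AD, AE, AF, AG, AI, C, D or F (adjusted p up to 0.112) for EOMES.

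In the germline list 3 of 19 genes were higher in the ICM and 2 in Sph EPI, with a median log2 fold change of 1.84 (1.44 with bounds) in favour of Sph EPI. TFAP2C, described above, was among the 3. SYCP3, of the meiotic chromosome axis, held 441, 775 and 1269.8 CPM in the ICM and 12.9, 57.3, 2.84 and 31.8 CPM in Sph EPI (adjusted p = 0.000759). BRDT, a testis bromodomain protein, held 35.6, 76.6 and 159 CPM against 0.609, 3.2, 4.81 and 2.92 CPM (adjusted p = 0.00285). Both were still near the ICM level in LB EPI, with 919, 618, 874 and 710.55 CPM for SYCP3 and 28.4, 41.8, 72.1 and 53.1 CPM for BRDT. SYCP3 was called in the step from LB EPI to Sph EPI (adjusted p = 0.035). PRDM1 and DND1, of primordial germ cells, were higher in Sph EPI (0.321, 2.62, 13.6 and 5.73 CPM and 5.07, 8.03, 94 and 5.68 CPM, adjusted p = 0.0385 and 0.0424), and DND1 was far higher in embryo E than in the other 3. In LB EPI both reached further, PRDM1 to 34.9, 7.84, 41.5 and 34.4 CPM and DND1 to 9.45, 6.78, 229 and 407 CPM. Of the cell surface genes the study names, CD79B with 43.2, 32.1, 30.3 and 18.2 CPM and CD200 with 43.5, 9.28, 0 and 37.3 CPM in Sph EPI had no ICM count (adjusted p = 0.00526 and 0.0306). Of 7 such genes tested these 2 were higher in Sph EPI and IL6ST in the ICM (median 0.70). Calls were lost without AA, AC, AF, AG, C, D, E or F (adjusted p up to 0.0896) for PRDM1, without AA, AC, AD, AE, AF, AI, C, D, E or F (adjusted p up to 0.168) for DND1 and without C, D or F (adjusted p up to 0.0805) for CD200.

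The remaining lists held fewer differences. MYC was the 1 of 24 growth regulators called, at 0, 0 and 3.57 CPM in the ICM, all from embryo AF, against 168, 120.4, 161 and 282 CPM in Sph EPI (adjusted p = 0.00529), with 1 of 24 and 48 of 48 cells above a TPM of 1 (list median 1.13). Of 33 cell cycle genes none was called by edgeR (median 0.42, or 0.49 with bounds), with 5 at an unadjusted p below 0.05 and 2 called by DESeq2, the lowest adjusted p being that of CCNB1 (0.0816) at 546, 1256 and 2501 CPM against 2151, 2266, 2975 and 3412 CPM. BAD and CFLAR, an inhibitor of caspase 8 activation, were the 2 of 17 apoptosis genes called, both higher in the ICM (adjusted p of CFLAR = 0.048, list median -0.26). CFLAR lost its call without AA, AC, AD, AE, AF, AG, AI, C, D or F (adjusted p up to 0.108). Of 22 immediate early and stress genes, the chaperones DNAJA1 (2.89-fold), HSP90AB1 (2.38-fold) and HSPH1 (3.1-fold) were higher in Sph EPI (adjusted p = 0.00244, 0.00321 and 0.0163, list median 0.84). DNAJA1 was not called by limma voom with sample quality weights (adjusted p = 0.184). HSPH1 was much higher in LB EPI than in either group, with 5668, 11403, 9026 and 4521 CPM against 132, 199 and 532 CPM in the ICM and 951, 729, 969 and 947 CPM in Sph EPI. Of 13 oocyte and maternal genes SOHLH2 was called, with no ICM count and 31.6, 5.28, 24.6 and 4.54 CPM in Sph EPI (adjusted p = 0.015), and lost its call without C (adjusted p up to 0.0503). The median of this list was 0 (1.63 with bounds).

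**Figure D5:**
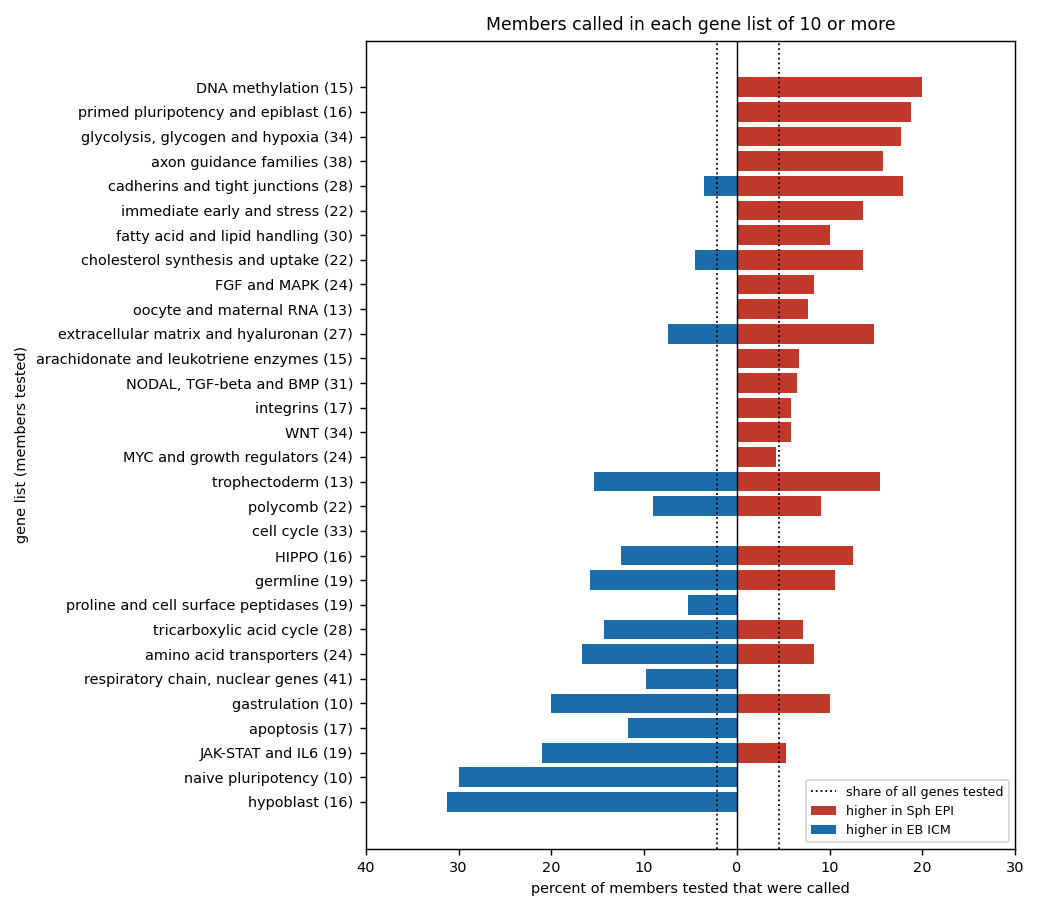
Percent of tested members called higher in Sph EPI (red bars, to the right) or higher in EB ICM (blue bars, to the left) for each gene list with 10 or more tested members, whose number is in brackets. Dotted lines mark the 4.54% and 2.19% of all 14721 genes called in these directions; the hypoblast and naive pluripotency lists reach furthest to the left and the DNA methylation and primed lists furthest to the right.

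The late blastocyst epiblast was set beside both groups to place these differences in time. It shares its samples with both steps, so each step is given on its own. In all, 417 genes (2.83%) were called between ICM and LB EPI, 248 of them higher in LB EPI, and 25 genes (0.17%) between LB EPI and Sph EPI, 10 of them higher in Sph EPI. DESeq2 called 1390 and 850 genes in these steps. Leaving out LB EPI embryo AP or AQ brought the first count to 239 and 263 genes and the second to 11 and 12, and leaving out Sph EPI embryo C or D brought the second to 15 and 12. In mean log2(CPM + 1), LB EPI was nearer to Sph EPI than to the ICM for 257 of the 322 genes called higher in the ICM and for 381 of the 668 called higher in Sph EPI, that is 79.8% and 57.0%, against 56.2% of all genes tested that were not at equal distance. Morulae were nearer to the ICM for 215 of the 322 (66.8%) and 608 of the 668 (91.0%), against 60.3% of all genes tested. For the 668 genes this was not particular to morulae. Early trophectoderm was nearer to the ICM for 641 of them, LB HYPO for 548 and Sph HYPO for 485. Of the 322 genes, these groups were nearer to the ICM for 178, 146 and 105. Their shares over all genes tested were 66.8%, 57.6% and 55.6%. Of the 375 genes called higher in Sph EPI with no ICM count, 323 had more than 3 counts in LB EPI, 187 in morulae, 102 in early trophectoderm, 200 in LB HYPO and 173 in Sph HYPO. Among the genes named above, EOMES, COL5A2, ROBO1, ROBO2, UNC5D, EPHB6 and SEMA3C were at 0 in every LB EPI embryo. Of the 61 genes called higher in the ICM with no Sph EPI count, 53 had more than 3 counts in morulae and 45 in early trophectoderm. In LB EPI 34 of them did, in LB HYPO 45 and in Sph HYPO 25. For these counts no share over all genes tested was computed.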

How the data were processed

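Smart-seq2 libraries of 220 cells were aligned by the authors with HISAT2 2.1.0 to the pig genome Sscrofa10.2 and counted per gene with HTSeq, and the deposited counts are whole reads per gene with no correction for PCR copies. The authors also deposited TPM values, scaled within each cell, which served the filter and the shares of cells. Of 22840 entries 11453 carried a symbol, and these held 75.3% of the counts. The authors added 16 entries of their own, whose counts were all even, among them NODAL, UTF1 and EOMES, and for 6 of them the Ensembl entry was used. Embryos were read from the letters of the cell names, since the labels give no embryo of their own, and p-values rest on the spread between these embryos. Counts were summed per embryo, and genes with a TPM over 1 in at least 3 cells entered edgeR 4.0.16 (TMM, quasi-likelihood test, Benjamini-Hochberg, threshold 0.05), fitted for each pair of groups. The fit was first tried on simulated data, where only genes above a set mean level were changed. The outcome of that trial is not given and does not speak for genes near 0 counts. The SE is the log2 fold change divided by the root of the F statistic. Where a group held no count, the bound on the fold is taken against 3 counts over that group, and medians of lists with bounds use it. DESeq2 1.42.0 and limma 3.58.1 (R 4.3.3) were alternatives. Genes named are the 5 markers, the 12 with a symbol and smallest p in each direction without overlap, and the 3 with the smallest p of each list. Some genes of the lists that the study names are given too. Others that the study names were tested, were not called and are not given. The genes described thus lean toward those called. Other list members were named after their values were seen, and a few genes are not reported here. The members and lists were chosen with earlier results of these data known.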

Additional observations from a re-analysis of the deposited data

Results flagged for a closer look

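In 171 tests of 1 gene in 1 group, 21 had an embryo whose gap to the nearest other embryo took up most of the range of its group (Dixon's criterion, which chance meets in about 1 group of 20). All levels below are log2(CPM + 1), and no explanation was tested.

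ICM embryo AD, a single cell, was the one singled out most often. It was low for STAT3, at 6.63 against 8.68 to 9.85 in the others and for IL6ST, at 5.29 against 7.53 to 8.89. It was high for MTF2, at 7.68 against 7.02 to 7.29, for UTF1, at 2.57 against 0 to 0.45, and for CCN2, at 1.25 against 0 to 0.13. Embryo AI, also a single cell, was low for PECAM1, at 3.31 against 6.74 to 8.48, and for TBX3, at 4.16 against 6.50 to 8.07. Both of these genes stayed above every Sph EPI embryo in AI.

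Among the other ICM embryos, AA was low for SLC25A1, at 2.69 against 4.41 to 5.49, and at 0 for CHRD, where the others had 3.95 to 6.69. AE was high for EGLN3, at 1.78 against 0 to 0.35, and for PIK3R1, a regulatory subunit of PI3 kinase, at 2.79 against 1.06 to 1.79. For 3 genes with no counts in the other ICM embryos a single embryo held them all, AA for KIF5C at 0.35, AC for ACSL4 at 0.45 and AF for MYC at 2.19.

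In Sph EPI, embryo E was at 0 for EOMES, where the others had 2.92 to 3.48, and at 0 for CFLAR, where they had 4.40 to 4.97. Embryo F was high for DOK5, at 7.36 against 5.62 to 5.78, and low for LIN28A, at 3.76 against 4.56 to 4.67. Embryo C had low but unmatched levels of SLC7A9, at 0.44 against 0 to 0.07, and of GSC, at 0.33 against 0 to 0.04. Embryo D was lower for HSPH1, at 9.51 against 9.89 to 9.92.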

How the results depend on the processing

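The count of 990 genes between ICM and Sph EPI became 2059 with DESeq2, 1896 and 1988 with limma on mean log2(TPM + 1) and log2(TPM + 0.1), 3239 with limma voom and sample quality weights, 452 with the first 4 pools of cells and 374 with the last 4. Leaving out each embryo gave 492 (without F) to 1003 genes (without E). Library size alone, DESeq2 size factors, no filter, filterByExpr, all 7 groups in 1 model, sums of at least 2 cells and thinned cells gave 840 to 1264. The 417 genes between ICM and LB EPI became 1390 with DESeq2 and 239 to 413 without 1 embryo. The 25 genes between LB EPI and Sph EPI became 850 with DESeq2, 13 with the LB EPI cell of uncertain embryo entered on its own, and 11 to 30 without 1 embryo. The difference in genes detected per cell ranged from -85.4 (without F, its direction reversed) to 507.7 genes (without E). The causes of these changes were not tested. Of the 108 genes named by rule 89 were called, 39 of them in each alternative run for them and 69 in each fit without 1 embryo, and in 2580 alternative values 191 calls were lost, 55 gained and none of the directions reversed. The 5 marker genes, given in advance as markers, kept their calls in each alternative, all fitted on these same cells. Limma voom with sample quality weights lost 9 calls, among them SOD1, PKM and KRT8. With no TMM the calls of SDHD, MTF2 and EOMES were lost, with size factors that of EOMES. The number of list members called ranged over the alternatives as follows: naive pluripotency 2 to 6, core pluripotency 0 to 2, primed pluripotency 2 to 9, JAK-STAT and IL6 2 to 7, NODAL and BMP 1 to 7, FGF and MAPK 2 to 7, WNT 1 to 10, HIPPO 2 to 6, gap junction connexins 2 to 5, cadherins and tight junctions 3 to 11 and extracellular matrix and hyaluronan 2 to 10. Further ranges were integrins 0 to 6, axon guidance families 1 to 16, glycolysis 3 to 10, tricarboxylic acid cycle 1 to 10, respiratory chain 0 to 15, fatty acid and lipid handling 1 to 10, cholesterol synthesis and uptake 2 to 13, arachidonate and leukotriene enzymes 1 to 2, amino acid transporters 2 to 12, proline and cell surface peptidases 1 to 7 and DNA methylation 1 to 3. The last were polycomb 1 to 9, trophectoderm 3 to 7, hypoblast 4 to 10, gastrulation 0 to 3, germline 2 to 9, surface markers 1 to 6, oocyte and maternal RNA 0 to 3, immediate early and stress 2 to 8, apoptosis 1 to 6, cell cycle 0 to 5 and MYC and growth regulators 1 to 6. No paired analysis was possible because no embryo gave cells to both groups. The share of mitochondrially encoded counts was not run, since 0 entries could be recognised as such. Embryo sums rest on as few as 1 cell, and calls of genes at a few CPM in some embryos rest on few cells.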
